A study of Mus musculus with 4 samples.

Results

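The genes described are those of the mouse major histocompatibility complex (MHC, called H2 in the mouse) together with 3 genes that serve it. Members are the genes whose non-control probes carry a name starting with H2-, plus B2m, Cd74 and Ciita. They number 42 of 31131 genes on the array and are read by 58 probes on 76 spots. RNA from mouse lung was hybridised on 4 Agilent 1-colour arrays, 1 for each of 4 groups: Pla2g3+/+ and Pla2g3-/- mice, as controls or challenged with antigen. Every array took RNA pooled from 4 samples, so there is no replicate and no test of a difference between single groups. Per the labels, mice received 10 µg of ovalbumin with 1.3 mg of alum on days 0 and 14 and inhaled 1% ovalbumin for 30 min on days 26, 27 and 28, and lungs were taken 48 h later. The labels attach this protocol to every group, and they give neither the treatment of the controls nor the strain, age and sex of the mice.

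MHC class I molecules consist of a polymorphic heavy chain and the light chain β2-microglobulin, and show peptides from inside the cell to CD8+ T cells. Class II molecules are pairs of an alpha and a beta chain, found mainly on dendritic cells, macrophages and B cells, and show peptides taken up from outside to CD4+ T cells, the step by which an inhaled antigen reaches the T cells of the lung. The invariant chain Cd74 guides class II through the cell, the DM proteins exchange its peptide, the DO proteins hold DM back, and the transactivator CIITA switches the class II genes on. The Q, T and M regions hold further class I genes, many of them expressed in few tissues.

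The files hold values from 2 sources, the authors' value table and the scanner files, and these did not describe the same measurements. Over all non-control spots, log2 values of a scanner file and of the table column of the same sample correlated at 0.911 to 0.919, against 0.911 to 0.917 for columns of other samples, while 0.985 was the lowest value between arrays of 1 source. Alveolar type II cell genes summed to 287 to 306 in the table and 52.1 to 60.3 in the scanner files, and endothelial genes to 44.9 to 53.2 and 2.6 to 3.23 (sums of linear levels, where 1.00 is the array's 75th percentile). The 5 lung identity genes had like sums, 246 to 262 in the table and 217 to 250 in the scanner files, but not like members. Sftpc, which is on this list and on the alveolar type II list, had log2 levels of 6.92 to 7.04 in the table. In the scanner files its log2 levels were -1.33 to -0.26. Both sources therefore stand apart below, and no value of one is set against a value of the other. Pla2g3, the deleted gene, was higher on the arrays labelled knockout: its log2 levels in the table were -4.66 and -4.60 on the WT-labelled arrays and -0.20 and 0.06 on the KO-labelled ones, and the scanner files gave -3.05 and -2.83 against 0.14 and 1.07. This direction is the opposite of what the labels would give for a deleted gene. The labels and files do not say whether the probe lies within the deleted part, and the cause was not tested. Groups are therefore called by their labels throughout.

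Levels are log2 values relative to the array's 75th percentile, and 4 values in a row always stand for the WT-labelled control, KO-labelled control, WT-labelled challenged and KO-labelled challenged arrays, in that order. "WT pair" and "KO pair" mean challenged minus control within a label. A difference counts from 2-fold (1 on the log2 scale), where at least 1 of the arrays compared was above background.

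Many MHC genes are close copies of each other and differ between mouse strains, so the probe sequences matter for reading their values. All member probes were 60 bases long. Among the 1653 pairs of member probes, 7 pairs assigned to different genes shared a run of 15 or more bases. The H2-Q7 and H2-K2 probes were identical at 49 of 57 aligned bases, and those of H2-Q10 and H2-Q2 at 45 of 50. The less bright probe of H2-K1 shared a run of 29 bases with the only probe of H2-T23, a gene described below. The H2-K1 levels given below come from its other probe, spotted 10 times, which was in none of these pairs. A base that differs between a probe and the allele of these mice can lower its signal, and this was not tested. Shown first, 5′ to 3′ as the scanner files give them, are probes of H2-T18 and H2-Q10, genes whose probes gave different readings, and the only probe of H2-Ea-ps, which was at background in one source and above it in the other. For H2-T18, capitals mark the bases at which its 2 probes differ, at 3 of 56 aligned positions (G39A, G42T and G52T, counted from 1 at the 5′ end of the first probe).
H2-T18, first probe: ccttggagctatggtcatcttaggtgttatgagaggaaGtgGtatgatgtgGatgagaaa
H2-T18, second probe: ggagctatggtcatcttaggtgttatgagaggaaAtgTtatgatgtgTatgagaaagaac
H2-Q10, first probe: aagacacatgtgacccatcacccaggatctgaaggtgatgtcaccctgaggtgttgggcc
H2-Ea-ps, only probe: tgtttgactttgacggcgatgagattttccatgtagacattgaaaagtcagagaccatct
Another probe of H2-Q10 and a probe of H2-T3 shared a run of 22 bases that no other probe on the array held, shown because these genes gave the least steady readings.
Run shared by H2-T3 and H2-Q10: ttgtggaggaaataaatggcag

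Promoter sequence was at hand from RefSeq (GRCm38.p6) for 29 of the 42 genes, from 250 bases before to 50 after the start. The bases from 210 to 31 before the start are printed for some of them. These are the class II genes H2-Aa, H2-Eb1 and H2-Oa and the 2 classical class I genes. Capitals mark CTGATTGG, the core of the class II Y box, in H2-Aa, H2-Eb1 and H2-Oa, and TTTCACTT, the core of the interferon response element, in H2-K1 and H2-D1.
H2-Aa, chr17:34287854-34288033, minus strand: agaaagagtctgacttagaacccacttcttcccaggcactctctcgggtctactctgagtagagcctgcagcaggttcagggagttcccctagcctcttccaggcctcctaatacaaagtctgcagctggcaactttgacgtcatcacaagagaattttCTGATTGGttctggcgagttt
H2-Eb1, chr17:34305657-34305836, plus strand: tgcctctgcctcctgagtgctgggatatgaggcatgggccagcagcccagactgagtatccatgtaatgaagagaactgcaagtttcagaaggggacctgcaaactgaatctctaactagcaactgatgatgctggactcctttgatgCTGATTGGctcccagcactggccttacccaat
H2-Oa, chr17:34092169-34092348, plus strand: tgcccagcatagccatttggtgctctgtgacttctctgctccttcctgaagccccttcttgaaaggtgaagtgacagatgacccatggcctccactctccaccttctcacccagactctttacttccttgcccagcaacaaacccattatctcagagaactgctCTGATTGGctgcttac
H2-K1, chr17:34000378-34000557, minus strand: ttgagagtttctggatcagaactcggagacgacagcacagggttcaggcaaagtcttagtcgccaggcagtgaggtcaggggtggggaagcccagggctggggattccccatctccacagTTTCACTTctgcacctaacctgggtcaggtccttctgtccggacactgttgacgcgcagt
H2-D1, chr17:35262884-35263063, plus strand: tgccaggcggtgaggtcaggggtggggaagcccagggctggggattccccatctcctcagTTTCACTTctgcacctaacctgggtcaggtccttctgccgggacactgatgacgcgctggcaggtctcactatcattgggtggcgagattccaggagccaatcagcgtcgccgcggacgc
Searched on both strands over the whole 300 bases, CTGATTGG was in 15 of the 29 promoters and in 4.1% of all 32851 promoters. The class II genes among these 15 were H2-Aa, H2-Eb1, H2-Eb2 and H2-Oa, with the letters in the direction of the gene. The others were class I genes, all with the letters on the opposite strand, among them H2-K1 and H2-D1. The match in H2-D1 lies within the printed bases and is not in capitals. TTTCACTT was in 7 of 29 and in 1.6% of all, and the letters of the class I enhancer A, which lie just before it in both printed class I promoters, in 2 of 29 (H2-K1 and H2-D1) and in 0.0304% of all. CCTAGCAAC, the core of the class II X1 box, was in 1 of 29 (H2-Ob) and in 0.804% of all. No match of one motif overlapped a match of another, and a match describes these letters only.

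Of the 42 genes, 35 were above background on at least 1 array in the value table and 33 on all 4. H2-Ea-ps, H2-M1 and the 5 H2-M10 genes of the array were at background on all 4 table arrays. The scanner files had 37 above background, 35 of them on all 4 arrays, with H2-M10.1, H2-M10.2, H2-M10.4, H2-M10.6 and H2-M5 at background throughout. Most of the genes stayed within a 2-fold range over all 4 arrays: 32 of the 33 in the table, where H2-T24 was the exception, and 28 of the 35 in the scanner files, where H2-DMb2, H2-Eb2, H2-Oa, H2-Ob, H2-T3, H2-T10 and H2-T18 were the exceptions.

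The number of genes at 2-fold or more was small in the table. It was 1 of 35 in the WT pair (H2-T3, higher), where the share over all genes was 2.55% in either direction and 1.9% higher, and 0 of 34 in the KO pair, where it was 3.45%. Between the labels it was 1 of 35 in controls (H2-T3, higher, against 3.94% of all genes, 1.56% higher) and 1 of 34 after challenge (H2-T24, lower, against 4.25%, 2.5% lower). These shares, 0% to 2.94% of members, lay near or under those of all genes. The scanner files gave 5 of 37 in the WT pair, all lower (13.5% of members, against 3.59% of all genes in either direction and 1.69% lower), and 3 of 37 in the KO pair, all lower (8.11%, against 7.27% and 3.37%). The KO-labelled control array differed from the WT-labelled one at 5 of 37, 3 higher and 2 lower (13.5%, against 5.16% of all genes, 3.22% higher and 1.94% lower), and the challenged arrays at 1 of 37, H2-T3, higher (2.7%, against 6.45%, 3.87% higher). The scanner genes fell in 2 groups, class II genes and class I genes of the T region, described in turn after the classical class I genes.

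Classical class I genes and the light chain were at nearly the same level on every array. H2-K1, a classical heavy chain, was at 5.82, 5.79, 5.91 and 5.91 in the table and at 6.38, 6.37, 6.46 and 6.39 in the scanner files. Its probe stands on each array 10 times, so the reading error can be seen: the WT pair difference was 0.10 ± 0.0317 in the table and 0.09 ± 0.027 in the scanner files (SD over the 10 spots of 1 array pair). The control difference between the labels was -0.03 ± 0.0376 and -0.01 ± 0.0435, smaller than the spread between spots. This spread measures the spots, not the mice. The first probe of H2-M2 is also spotted 10 times. Over both genes and all comparisons the SD of a difference ran from 0.017 to 0.043 in the table and from 0.0119 to 0.0571 in the scanner files.

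H2-D1, the other classical heavy chain measured, was at 5.08, 5.03, 5.23 and 5.05 in the table and at 5.13, 5.02, 5.19 and 5.18 in the scanner files. B2m, the light chain of every class I molecule, was at 5.62, 5.62, 5.78 and 5.67 in the table. Scanner values of B2m were 5.51, 5.36, 5.52 and 5.45. For all 3 genes the WT-labelled challenged array was the highest or level with the highest in both sources, by at most 0.20 over the lowest in the table and 0.17 in the scanner files. Differences of this size cannot be told from differences between pools with 1 array per group.

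The class I genes as a whole, 29 with B2m and the K2 gene, of which 22 to 24 entered a comparison, had median differences between -0.10 and 0.02 in the 4 table comparisons and between -0.05 and 0.02 in the scanner files. H2-M3, which presents formylated peptides, was at 0.67, 0.69, 0.59 and 0.72 in the table and at -0.76, -0.78, -0.81 and -0.84 in the scanner files. H2-T23 encodes Qa-1, a ligand of inhibitory receptors on natural killer cells. It was at 4.68, 4.94, 4.70 and 5.02 in the table, with both KO-labelled arrays above both WT-labelled ones. Its scanner values of 4.69, 4.76, 4.75 and 4.80 spanned 0.11. H2-Q4 was at 5.37, 4.87, 5.30 and 4.49 in the scanner files, lower on both KO-labelled arrays, and at 4.79, 4.64, 4.83 and 4.85 in the table, where the labels overlapped. H2-Ke6, an enzyme gene that only lies in the region, ranged from 2.58 to 2.75 in the table.

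A few class I genes followed the genotype label in the table. H2-T24, a T region gene read at chr17:36142640-36142699 (mm9), was at 0.19, -0.77, -0.15 and -1.19, lower on both KO-labelled arrays. The differences were -0.96 in controls and -1.05 (2.07-fold) after challenge, and its second probe gave -0.96 and -1.17. H2-Q5 was at 2.88, 2.20, 3.05 and 2.45, again lower on both KO-labelled arrays, while H2-T9 was at -0.23, 0.28, -0.22 and 0.21, higher on both. Scanner values did not show these differences in the same way. H2-T24 was at -2.97, -3.52, -3.19 and -3.49 there, with differences of -0.55 and -0.30, and its second probe gave -0.34 and 0.19. H2-Q5 stood at 0.89, 0.51, 0.91 and 0.98 and H2-T9 at -0.55, -0.25, -0.58 and -0.65, so that for both genes the labels overlapped.

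The additive fit takes the genotype difference averaged over treatments and the challenge difference averaged over genotypes, with the disagreement between the 2 pairs as its error. No gene at all passed an adjusted p of 0.05 in either effect of either source (limma, Benjamini-Hochberg over all genes above background; 0% called). At an unadjusted p under 0.05 the genotype effect held 8 of 35 members in the table, 2 higher and 6 lower, beside 13.8% of all genes, and 2 of 37 in the scanner files, beside 10.7%. The challenge effect held 5 of 35, beside 8.79%, and 0 of 37, beside 9.56%. The lowest adjusted p of any member was that of the H2-T24 genotype effect in the table, -1.0 ± 0.0754 (SE; limma adjusted p = 0.159), beside a lowest limma adjusted p of 0.109 over all genes for that effect. With a variance trend in limma, 4 members passed that effect: H2-T24 (adjusted p = 0.00403), H2-Q5 (-0.64, adjusted p = 0.00734), H2-T23 (0.29, adjusted p = 0.036) and H2-T9 (0.47, adjusted p = 0.0397). That setting called 1042 genes over the whole array where the common prior called 0, so these 4 calls rest on it. A filter on all 4 arrays called 271 genes for that effect and 0 members, with H2-T24 at an adjusted p of 0.0529 in limma.

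**Figure D1:**
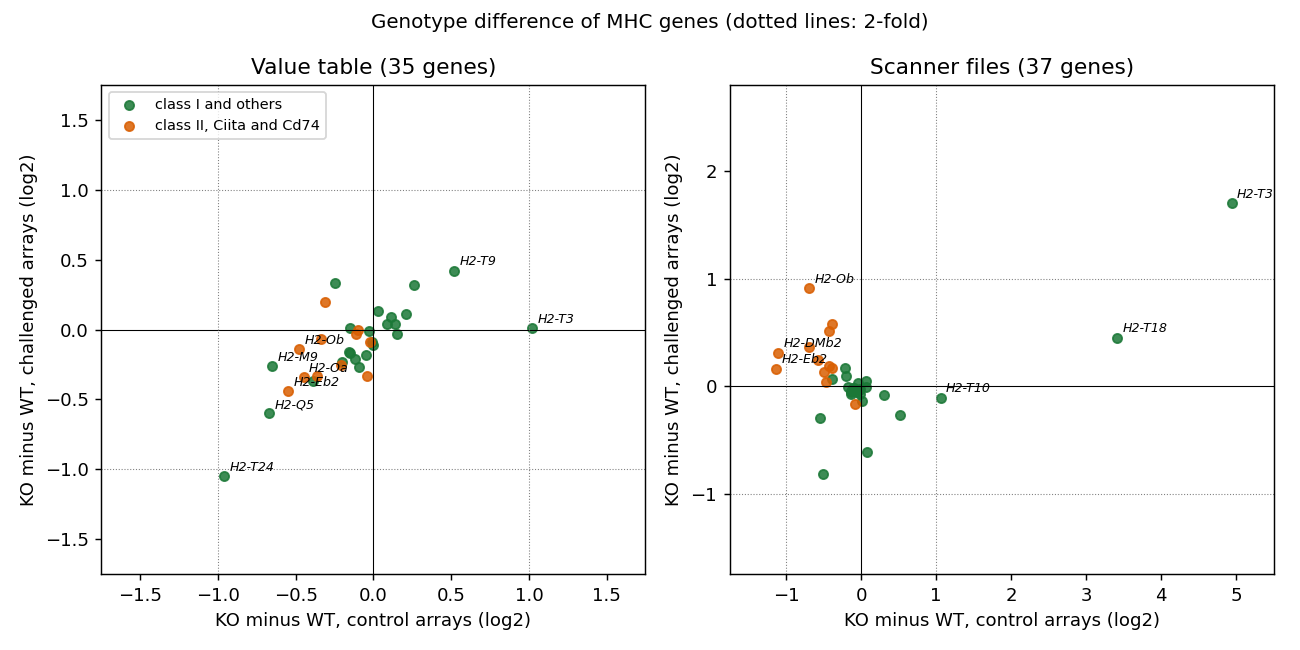
Each point is an MHC gene, placed by its log2 difference between the KO-labelled and the WT-labelled array in controls (x axis) and after challenge (y axis), with the value table on the left and the scanner files on the right. In the table H2-T24 sits at -0.96 and -1.05, and H2-T3 at 1.02 is a lower bound; in the scanner files H2-T3 at 4.94 and H2-T18 at 3.41 stand apart in controls, and the orange class II genes, apart from Ciita, lie below 0 on the x axis and above 0 on the y axis.

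T region genes gave the largest differences of all members in the scanner files. H2-T3 encodes a thymus leukaemia antigen, a class I molecule known from immature thymocytes and gut epithelium. By the probe at chr17:36323454-36323516 (mm9, as the scanner files give it) it was at -6.20, -1.26, -7.48 and -5.78, high on the KO-labelled control array alone. That array exceeded the WT-labelled control by 4.94 (30.6-fold), and the KO pair difference was -4.52 (22.9-fold lower). With normexp background correction these differences shrank to 3.47 and -3.31, and the differences of -1.28 in the WT pair and 1.70 between the challenged arrays, to -0.20 and 0.36, both under 2-fold. The other probes of H2-T3 gave at least 25.4-fold and at least 31.5-fold for the first of these, as the WT-labelled control array was at background for both.

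H2-T18, the related thymus leukaemia antigen gene, was at -6.43, -3.03, -6.66 and -6.21 by its first probe, again high on the KO-labelled control array alone. The difference of 3.41 from the WT-labelled control was 10.6-fold, and 1.86 on the log2 scale with normexp. Its second probe, the one with 3 other bases, was above background on that array only and gave at least 22.6-fold. H2-T10, a class I gene whose product is recognised by some gamma-delta T cells, was at -0.22, 0.84, -0.34 and -0.45. It was 2.09-fold higher on the KO-labelled control than on the WT-labelled control array and 2.45-fold higher than on the KO-labelled challenged array, and normexp kept both at 2-fold or more (1.02 and -1.28 for the KO pair).

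Immature thymocyte genes moved with these readings. All 10 of that list were at least 2-fold higher on the KO-labelled control than on the WT-labelled control array, with a median difference of 4.09, where 3.22% of all genes were higher. All 10 were at least 2-fold lower on the KO-labelled challenged than on the KO-labelled control array, where 3.37% of all genes were lower. Their summed level was 23.8 on the KO-labelled control array and 0.78 to 1.67 on the other arrays. Dntt, the template-independent polymerase of antigen receptor joints, was at -1.87, 3.72, -1.72 and -0.45, and Rag1, part of the recombinase, at -4.37, 1.43, -4.95 and -2.51. T cell genes summed to 18.7 there and to 3.85 to 4.86 elsewhere. Thymic epithelium genes summed to 1.65 on that array and to 1.16 to 1.44 on the others. Gene by gene, 5 of 6 were higher on the KO-labelled than on the WT-labelled control array, with a median of 0.62, while Tbata was lower (-0.54). Foxn1 alone reached 2-fold there, beside 3.22% of all genes higher. In the KO pair 4 of 6 were lower, 2 of them by at least 2-fold, beside 3.37% of all genes. What part the thymocyte genes have in the T region readings was not tested. Fewer cells of a type and less RNA per cell cannot be told apart in such bulk samples, here and below.

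The value table did not hold this pattern. H2-T3 was at -8.87, -7.63, -7.30 and -7.29, near background, and at background on the WT-labelled control array. The KO-labelled control was at least 2.03-fold and the WT-labelled challenged array at least 2.55-fold above it. The first of these rests on 1 of 3 probes, as the other probes were at background on both control arrays. H2-T18 was at -6.89, -7.29, -7.11 and -7.48 by its first probe, with the second at background on all 4 arrays, and H2-T10 at 0.03, 0.17, 0.12 and 0.09, with no difference near 2-fold. Rag1 and Rag2 were at background on all 4 table arrays.

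**Figure D2:**
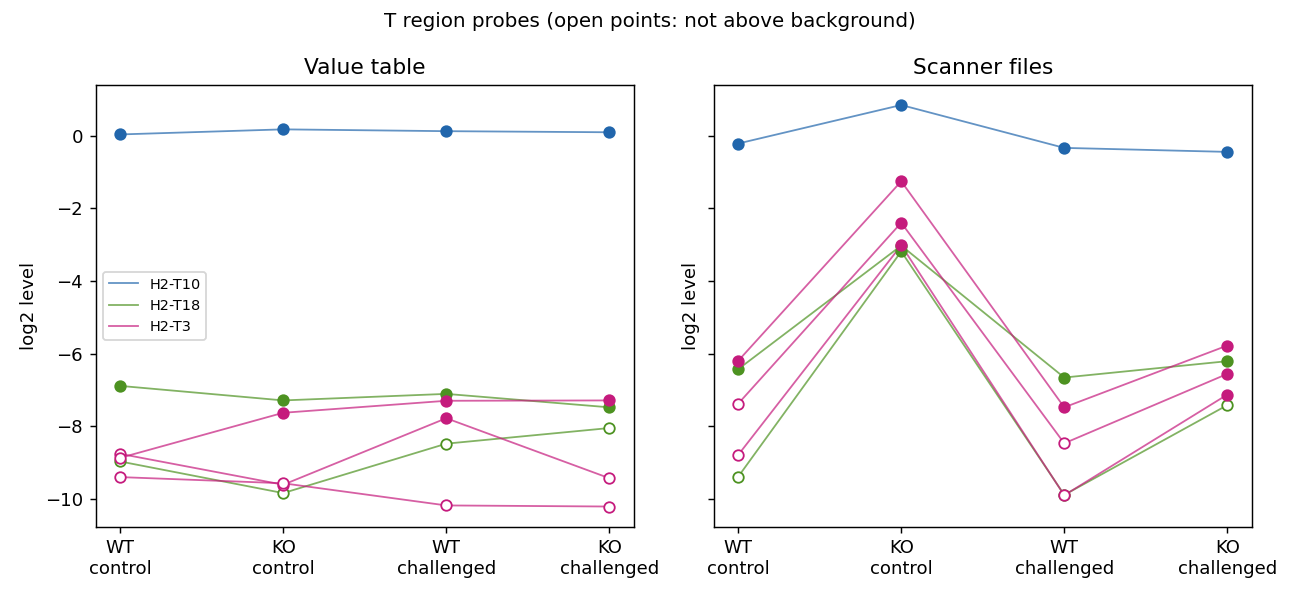
Log2 levels of the probes of H2-T3, H2-T18 and H2-T10 on the 4 arrays (x axis) in the value table (left) and the scanner files (right), 1 line per probe and 1 array per group, with open points where the probe was not above background. In the scanner files every probe is highest on the KO-labelled control array, H2-T3 reaching -1.26 and H2-T18 -3.03, while in the table the first H2-T18 probe and H2-T10 stay within a 2-fold range and the second H2-T18 probe is at background throughout.

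Class II genes were lower on the KO-labelled control than on the WT-labelled control array in both sources, by small amounts. The list holds 11 genes: the alpha and beta chains, DM, DO and Cd74. All 10 members measured in the table were lower, with a median of -0.28 and a range from -0.55 to -0.02, beside a median of 0.00 for all genes. None reached 2-fold, where 3.94% of all genes differed by that much. The scanner files had all 11 lower, with a median of -0.49, beside -0.03 for all genes. Of these 11 genes, 2 were lower by 2-fold or more, beside 1.94% of all genes. After challenge the sources parted: 9 of 10 were lower with the KO label in the table (median -0.19) and 11 of 11 higher in the scanner files (median 0.24). Quantile normalization kept each of these directions, giving 10 of 10 lower after challenge for the table, and normexp kept those of the scanner files with 10 of 11 lower in controls, none of them by 2-fold (lowest -0.65).

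The main antigen-presenting chains differed by less than 2-fold everywhere. H2-Aa, the alpha chain of the A molecule, was at 3.0, 2.79, 3.34 and 3.09 in the table and at 1.34, 0.95, 1.07 and 1.24 in the scanner files. H2-Ab1, its beta chain, was at 5.78, 5.68, 5.88 and 5.88 in the table and at 4.68, 4.25, 4.39 and 4.58 in the scanner files. H2-Eb1, the beta chain of the E molecule, was at 5.28, 5.26, 5.64 and 5.55 in the table and at 4.24, 3.78, 4.03 and 4.07 in the scanner files. In the table both challenged arrays were above both controls for these 3 genes, with WT and KO pair differences of 0.34 and 0.30 for H2-Aa and 0.35 and 0.29 for H2-Eb1. In the scanner files the WT-labelled control array was the highest for all 3.

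Cd74, the invariant chain, was at 4.79, 4.75, 5.10 and 4.78 in the table, highest on the WT-labelled challenged array, and at 3.32, 2.74, 2.81 and 3.05 in the scanner files, highest on the WT-labelled control. Ciita, the transactivator, was at -2.44, -2.75, -2.40 and -2.20 in the table and at -3.32, -3.39, -3.34 and -3.51 in the scanner files by its brightest probe. Its 3 probes differed from each other by up to 0.88 in a scanner comparison, less than 2-fold. By its brightest probe in the table the KO label was lower in controls (-0.31) and higher after challenge (0.20). The other probes of the table were lower with the KO label in both treatments, by -0.13 and -0.65 in controls and by -0.07 and -0.08 after challenge. In the scanner files the other probes gave -0.77 and -0.68 in controls, where the brightest gave -0.08.

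Of the DM genes in the table, H2-DMa and H2-DMb1 were higher on the challenged array in both pairs, and H2-DMb2 in the KO pair alone. H2-DMa, the alpha chain, was at 1.28, 0.92, 1.49 and 1.17 in the table and at -0.74, -1.18, -1.43 and -0.93 in the scanner files. H2-DMb1, a beta chain, was at 3.07, 2.95, 3.39 and 3.36 in the table, with both challenged arrays above both controls, and at 1.14, 0.65, 0.68 and 0.81 in the scanner files. H2-DMb2, the other beta chain gene, was at -2.39, -2.74, -2.58 and -2.65 in the table. Its scanner values of -4.05, -5.15, -5.20 and -4.89 put the WT-labelled control 2.14-fold above the KO-labelled control and 2.22-fold above the WT-labelled challenged array. With normexp both differences were -0.52, under 2-fold.

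The DO genes and H2-Eb2 showed the largest class II differences. H2-Oa, the DO alpha chain, was at -1.26, -1.95, -2.81 and -2.45 in the scanner files and 2.93-fold lower in the WT pair. H2-Ob, its beta chain, was at -1.30, -1.99, -2.78 and -1.86 and 2.77-fold lower in that pair. Another probe of H2-Ob gave -0.99 in the WT pair, just under 2-fold. H2-Eb2, a further E beta gene, was at -4.18, -5.31, -5.43 and -5.27, 2.37-fold lower in the WT pair and 2.19-fold lower on the KO-labelled than on the WT-labelled control array. With normexp the WT pair differences of H2-Oa and H2-Ob were -1.40 and -1.28, while those of H2-Eb2 fell under 2-fold, to -0.58 in the WT pair and -0.56 between the controls. For all 3 the WT-labelled control array stood above the other arrays. Table values of the same genes moved less: H2-Oa was at 0.29, -0.15, 0.17 and -0.17, H2-Ob at 0.65, 0.17, 0.18 and 0.04, and H2-Eb2 at -2.22, -2.77, -2.36 and -2.79.

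H2-Ea-ps, the alpha chain gene of the E molecule, is known to be silent in several laboratory strains. It was at background on all 4 arrays of the table and marked above background on all 4 scanner arrays, at -6.63, -7.02, -6.61 and -6.03. The KO pair difference of 0.99 fell just short of 2-fold and was 0.16 with normexp. The beta chain H2-Eb1 was well above background in both sources.

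Genes of cell types that carry class II also differed between the arrays, partly in the same direction as the class II genes. The 8 B cell genes summed to 5.47 on the WT-labelled control array of the scanner files and to 2.06 to 2.37 on the others, and 6 of 8 were at least 2-fold lower in the WT pair, where 1.69% of all genes were, with a median of -1.33, beside -0.51 for the 11 class II genes. Of these 11 genes, 10 were highest on that same array. Ms4a1, which encodes CD20, was at 0.50, -0.98, -1.06 and -0.81 there. In the table the B cell genes summed to 19.7, 14.4, 15.3 and 11.7 and the 10 dendritic cell genes to 11, 7.29, 14.4 and 8.94, both lower with the KO label in each treatment. Gene by gene, 9 of the 10 dendritic cell genes were lower with the KO label in controls (median -1.01) and 8 after challenge (median -0.67). Cd209a was higher in both treatments (0.57 and 0.35). All 8 B cell genes were lower on the challenged array in both table pairs, with medians of -0.40 and -0.22, where the class II medians were 0.16 and 0.14. Dendritic cell genes in the scanner files summed to 1.40, 0.995, 1.05 and 1.92, highest on the KO-labelled challenged array, with Xcr1 at background on all 4 arrays, and macrophage genes to 12.9, 12.7, 9.69 and 18.2. Macrophage genes in the table summed to 34.3, 37.4, 39.9 and 44.4, with Marco at 1.51, 3.15, 0.68 and 2.58. Gene by gene, 3 of these 9 were higher and 6 lower with the KO label in controls (median -0.06). After challenge 5 were higher and 4 lower (median 0.02). The part of these cell types in the class II values was not tested.

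**Figure D3:**
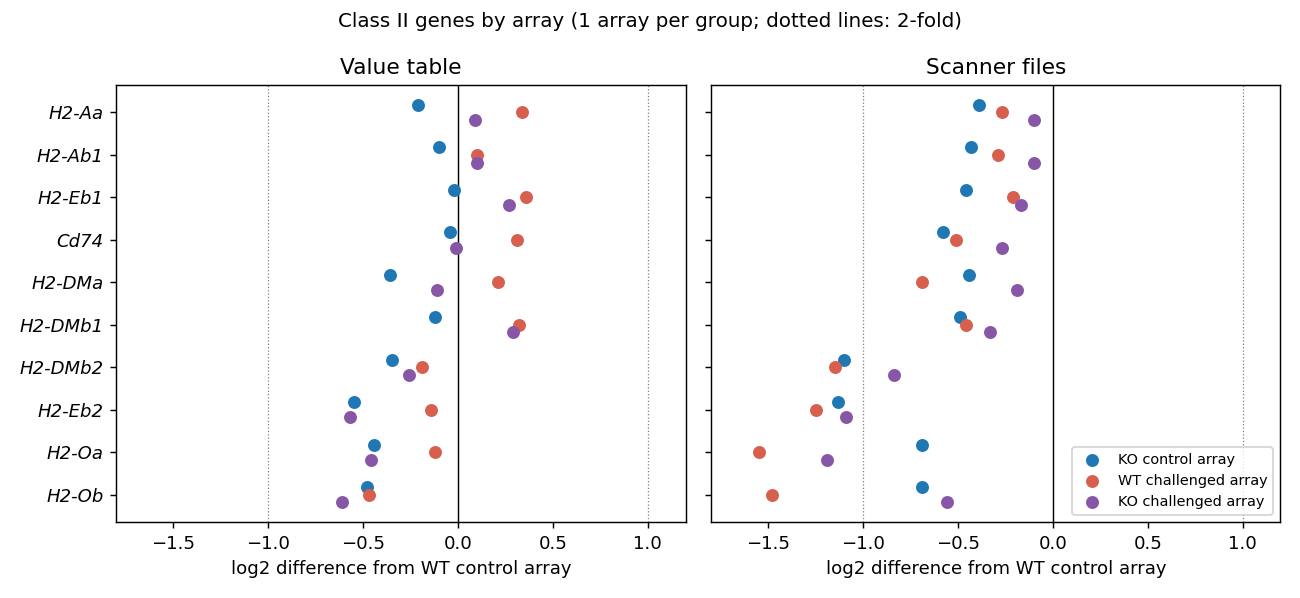
Log2 difference of Cd74 and each class II gene except H2-Ea-ps from the WT-labelled control array (x axis) for the other 3 arrays, in the value table (left) and the scanner files (right), with dotted lines at 2-fold and 1 array per point. All points of the scanner files lie below 0, reaching -1.55 for H2-Oa on the WT-labelled challenged array, whereas in the table H2-Aa, H2-Eb1 and H2-DMb1 lie above 0 on both challenged arrays.

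Challenge responses of the class II genes therefore differed between the sources. In the table H2-Aa, H2-Ab1, H2-Eb1, H2-DMa and H2-DMb1 were higher on the challenged array in both pairs (H2-Ab1 at -0.02 in the WT pair under quantile normalization), while H2-Oa, H2-Ob and H2-Eb2 were lower in both. Of these 10 genes 6 were higher in the WT pair and 7 in the KO pair, with medians of 0.16 and 0.14, and under quantile normalization these counts were 5 and 6. The scanner files had 10 of 11 lower in the WT pair (median -0.51) and 10 of 11 higher in the KO pair (median 0.26). Quantile normalization gave the same counts there, and normexp gave 10 lower and 9 higher. None of these differences could be tested against the spread between arrays of a group. The control arrays that set them are also those of the label comparison above, so the 2 sets of values are not independent.

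**Figure D4:**
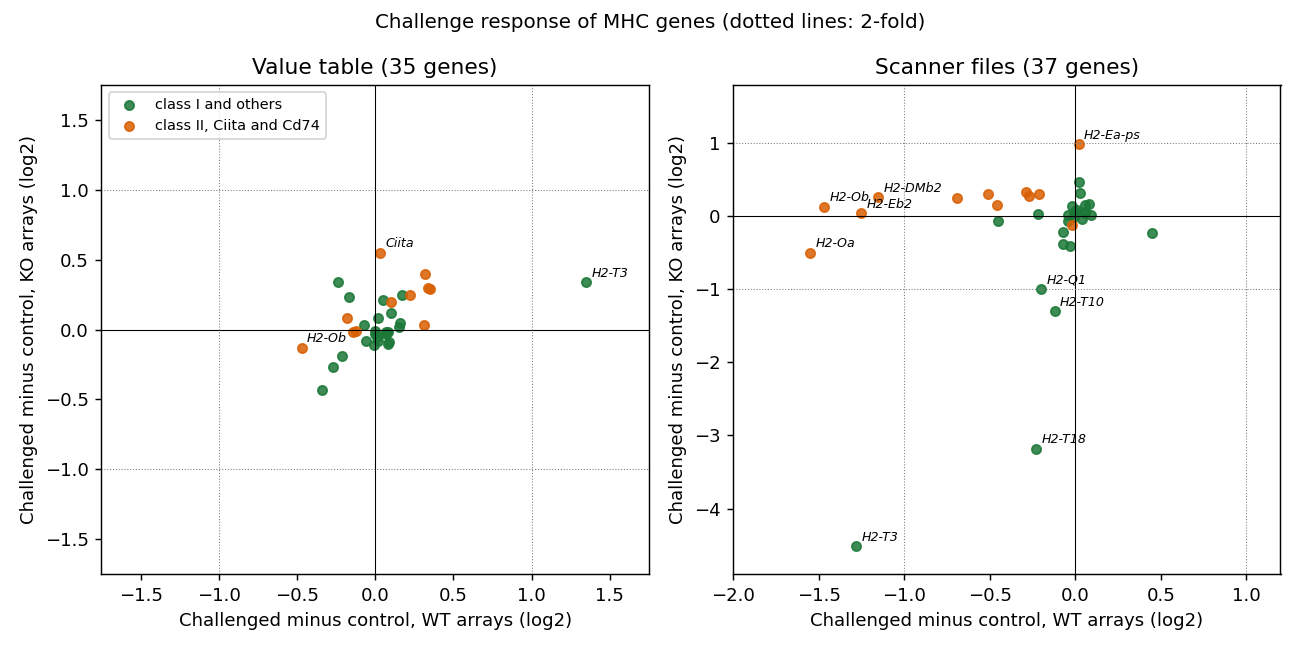
Each point is an MHC gene, placed by its log2 difference between challenged and control array in the WT pair (x axis) and the KO pair (y axis), with the value table on the left and the scanner files on the right. In the scanner files H2-T3 at -4.52 and H2-T18 at -3.18 were lower in the KO pair, and the class II genes H2-Oa, H2-Ob, H2-Eb2 and H2-DMb2 lie between -1.55 and -1.15 in the WT pair; in the table H2-T3 at 1.35 is a lower bound.

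In a few genes the probes did not give the same answer. H2-Q10, a secreted class I molecule known from liver, was flat by its first probe, at 0.55, 0.62, 0.60 and 0.59 in the scanner files, and at 0.82, 1.02, 0.81 and 0.92 in the table. The second probe, which shares 22 bases with the H2-T3 probe, was at -5.26, -4.04, -3.80 and -1.35 in the scanner files, highest on the KO-labelled challenged array and 6.47-fold higher in the KO pair. That H2-T3 probe was highest on another array, the KO-labelled control, at -3.02. In the table the second H2-Q10 probe was at -2.26, -1.84, -1.79 and -1.98, within a 2-fold range. H2-M2 was flat by its repeated probe, at 2.94, 2.93, 3.0 and 2.91 in the table. Its other probe was at -1.34, 0.21, 0.23 and 0.31 there, low on the WT-labelled control array alone, by 2.96-fold in the WT pair. Scanner values of that probe were -2.73, -2.97, -2.20 and -2.52, with no such gap.

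Genes that supply class I with peptide differed little. All 13 measured, among them the peptide transporter Tap1 and Tap2 and the immunoproteasome subunits Psmb8, Psmb9 and Psmb10, were higher on the challenged array in both pairs of the scanner files. Medians were 0.24 in the WT pair and 0.16 in the KO pair, beside -0.03 and -0.06 for all genes. In these pairs 0 of 13 reached 2-fold, where 3.59% and 7.27% of all genes did. The chaperone gene Calr was at 3.54, 3.61, 4.12 and 4.25, both challenged arrays above both controls. Nlrc5, the transactivator of class I genes, was at -0.60, -1.19, -0.24 and -0.35. The table had 10 of 13 higher in the WT pair and 4 of 13 in the KO pair, with medians of 0.06 and -0.07, and Nlrc5 was at 0.95, 0.12, 0.91 and 0.34, lower on both KO-labelled arrays. No gene of the list passed the additive fit in either source (limma adjusted p), with 2 of 13 at an unadjusted p under 0.05 for challenge by the scanner values, beside 9.56% of all genes, and 0 by the table, beside 8.79%.

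Genes of class II loading and control gave 0 of 14 at 2-fold in the table. Ifi30, a thiol reductase of the peptide-loading compartment, was at 1.65, 1.60, 2.26 and 2.10 there, and Ctss, the protease that trims the invariant chain, at 4.55, 4.54, 5.02 and 4.88. For both, the challenged arrays were above the controls. Their scanner values, 0.77, 0.79, 0.70 and 0.92 for Ifi30 and 2.39, 2.64, 2.32 and 3.14 for Ctss, overlapped between control and challenge. Marchf1, a ubiquitin ligase that removes class II from the surface, was the one of 14 at 2-fold in a scanner comparison, at 1.67, 1.16, 1.60 and 0.37. It was lower with the KO label after challenge, where 6.45% of all genes differed by 2-fold.

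Interferon gamma, which induces both MHC classes, and several of its response genes reached 2-fold in the scanner files. Of 20 measured, 7 were at least 2-fold higher and 1 lower in the KO pair, where 7.27% of all genes differed by 2-fold, and 2 were higher in the WT pair, beside 3.59% of all genes. Ifng itself was at -6.09, -6.66, -6.55 and -4.37 there, highest on the KO-labelled challenged array. The chemokine genes Cxcl10, at -1.84, -2.29, -0.04 and 2.09, and Cxcl9, at -4.65, -5.44, -4.58 and -1.82, were highest on the same array. Gbp4, the 1 gene lower in the KO pair, went the other way. It was at -3.04, -1.20, -3.89 and -3.18, highest on the KO-labelled control array and lower on the challenged array in both pairs. The table had Ifng at -2.53, -3.25, -2.14 and -3.40, lower on both KO-labelled arrays, and Cxcl9 at -1.09, -3.83, 0.18 and -1.78. There 1 of 20 was at least 2-fold higher in the WT pair, beside 2.55% of all genes at 2-fold in either direction, and 2 of 20 in the KO pair, beside 3.45%. H2-K1, H2-D1 and B2m stayed within 0.20 on those same arrays. No gene of the list passed the additive fit (limma adjusted p), with 7 of 20 at an unadjusted p under 0.05 for challenge by the scanner values, beside 9.56% of all genes, and 2 of 20 by the table, beside 8.79%.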

How the data were processed

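Spot intensity in the authors' scanner files was read by Agilent Feature Extraction 11.5.1.1, per the submitters' processing notes and the file headers, with probe positions on mm9. The authors deposited a value table with a linear signal per spot and sample. Neither labels nor headers describe its making. Its 75th percentile lay at 1.00 in each column. Spots were 44397 per array, 43020 of them not controls. Groups came from the sample titles. No other sample column was found (0).

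Scanner intensities were taken to log2, with the array's 75th percentile subtracted. Spots of a probe were averaged, and a gene was read by its probe with the highest mean. Above background meant Agilent's flag, or, for the deposited table, over 5 times the median negative control, and a gene at background on 1 side was given as a lower bound. No member spot was saturated (0). Agilent's own error of member spots ran from 0.144 to 1.44 on the log2 scale, and precision is limited by the number of arrays, 1 per group. The additive fit used limma 3.58.1 in R 4.3.3 (genotype plus treatment, 1 residual degree of freedom). Only its mean estimates were checked on simulated data, which had the same spread for every gene and no interaction. The error of the fit mixes any interaction with differences between pools. Python 3.11.15 did the rest.

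Levels are given for the classical genes, B2m, Cd74, Ciita, DM and DO, any member at 2-fold or more, and probes that disagreed by 2-fold. From each further list at most 4 genes are given with levels by size of the averaged challenge difference, plus Ifng for its role. Transporter and immunoproteasome genes are named for their role. Other genes named were chosen after their values were seen. The members, lists and tests were chosen with earlier results of these data known. The value table was first planned as another form of the scanner values. Alternatives were quantile normalization, normexp (offset 50), a 1.5-fold rule, other filters, the mean of probes and a variance trend.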

Additional observations from a re-analysis of the deposited data

Results flagged for a closer look

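Some MHC genes in the scanner files had differences of opposite sign between the 2 labels or treatments. Those named here were at least 2-fold apart, with all 4 arrays above background. The share of all genes that meet this rule is not given, so the number of such members is not read as high or low. With 1 array per group none of these differences was tested. The challenge response differed between the KO and the WT pair by 1.41 for H2-DMb2 (-1.15 in the WT pair, 0.26 in the KO pair), by 1.29 for H2-Eb2 (-1.25 and 0.04) and by 1.60 for H2-Ob (-1.47 and 0.13). The same numbers read as genotype differences were -1.10 in controls and 0.31 after challenge for H2-DMb2, again 1.41 apart, -1.13 and 0.16 for H2-Eb2, 1.29 apart, and -0.69 and 0.91 for H2-Ob, 1.60 apart. H2-Oa gave -0.69 and 0.36, 1.05 apart. Another probe of H2-Ob gave a challenge response of -0.99 in the WT pair and 0.31 in the KO pair, 1.3 apart. With normexp the response of H2-DMb2 was -0.52 in the WT pair and 0.06 in the KO pair, and that of H2-Eb2 -0.58 and -0.02. H2-T10 went the other way, with 1.06 in controls and -0.11 after challenge, a change of -1.18. The 4 class II genes were highest on the WT-labelled control array, where the summed B cell genes were highest too, and H2-T10 on the KO-labelled control array, where the thymocyte genes were highest. The part of these genes was not tested.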

How the results depend on the processing

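No paired analysis was possible because each group had 1 array and the labels give no replicate numbers, and no array could be left out. Counts of members at 2-fold or more moved as follows. Table, WT pair (1): 0 with a filter on all 4 arrays or the mean of probes, 2 with no filter. Table, KO pair (0): 1 with no filter. Table, labels in controls (1): 4 with a 1.5-fold rule or no filter, 0 with all 4 arrays or the mean of probes. Table, labels after challenge (1): 2 with a 1.5-fold rule or no filter. Scanner files, WT pair (5): 2 with normexp. Scanner files, KO pair (3): 5 with a 1.5-fold rule. Scanner files, labels in controls (5): 3 with normexp. Scanner files, labels after challenge (1): 4 with a 1.5-fold rule, 3 with the mean of probes, 0 with normexp. Genes passing the additive fit numbered 0 at first, 117 (99 higher, 18 lower) for challenge and 1042 (410 higher, 632 lower) for genotype in the table with a variance trend, 271 (102 higher, 169 lower) for genotype with all 4 arrays, and 1 for challenge in the scanner files with a trend. Quantile normalization moved none of these 12 counts by over 1.5 times. No member past 2-fold changed direction under quantile normalization, normexp or the mean of probes where these gave a value. The mean of probes gave no value for H2-T3 in table controls, nor for H2-M9 in 2 scanner comparisons, where the mean lay under the background level, and neither did normexp for H2-M9 in controls. The cause of these changes was not tested, except that a smaller fold and fewer or more genes change a count by construction.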
